A study of Homo sapiens with 12 samples.

Results

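The genes described here are the carnitine palmitoyltransferase (CPT) system and the enzymes and regulators of fatty acid oxidation, 43 genes listed by symbol. The list holds CPT1A, which the study chose on these arrays, and was made with earlier results of these data known. All 43 were found on the array, with 67 probes among the 41000 gene probes, and each gene was represented by its brightest probe. A gene was tested where that probe was well above background, by the scanner software's own flag, on all 8 arrays of at least 1 culture. Of the 43 genes, 36 were tested, among 18884 of 30238 genes in all.

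RNA came from 3 cultures of Rh30, an established human alveolar rhabdomyosarcoma cell line that carries the PAX3-FKHR fusion gene (FKHR is now named FOXO1). WT is the parental line, never transduced and grown without puromycin. CON is a clone with a retroviral vector for a non-targeting short hairpin RNA, and KD1 is a clone with the same vector carrying a hairpin against the fusion transcript. Both clones were kept in puromycin at 1 μg/mL, which WT did not receive, and all cultures grew for 24 hours in medium with 10% FBS before RNA extraction. CON and KD1 were each represented by 1 clone, so that an effect of the hairpin cannot be told apart from a difference between clones. The 12 two-color arrays compared KD1 with CON, KD1 with WT and WT with CON, written below as KD1/CON, KD1/WT and WT/CON after the ratio measured, each in 2 biological replicates with a dye-swap pair, so that 6 RNA extracts were each read on 4 arrays. The question was which genes of the pathway followed the level of PAX3-FKHR.

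Long-chain fatty acids are first joined to coenzyme A by acyl-CoA synthetases. CPT1 on the outer mitochondrial membrane then transfers the acyl group to carnitine, the carrier SLC25A20 takes acylcarnitine across the inner membrane, and CPT2 restores the acyl-CoA, which is shortened stepwise by dehydrogenation, hydration, a further dehydrogenation and thiolysis. CPT1 is the step held back by malonyl-CoA, the product of the acetyl-CoA carboxylases. CPT1 is encoded by separate genes: CPT1B serves heart and skeletal muscle, CPT1C belongs to neurons and oxidizes little fat, and CPT1A serves other organs, liver among them.

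The results for CPT1A rest on 1 probe, A_23_P104563, which lies at chr11:68283639-68283698 on the minus strand of build NCBI36 and is annotated in the scanner files to a CPT1A transcript variant. It is shown with the CPT1B probe A_23_P218817 at chr22:49354708-49354921 and the probe A_23_P32199 of CRAT, carnitine acetyltransferase, at chr9:130897645-130897704, both on the minus strand, because these related genes could in principle share signal. Capitals mark the bases that match between the CPT1A and CPT1B probes over an ungapped overlap of 25 bases and, in the CRAT probe, the bases that match CPT1A over an overlap of 22 bases.
CPT1A: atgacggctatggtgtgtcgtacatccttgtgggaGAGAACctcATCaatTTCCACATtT
CPT1B: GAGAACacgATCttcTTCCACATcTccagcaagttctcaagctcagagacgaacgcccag
CRAT: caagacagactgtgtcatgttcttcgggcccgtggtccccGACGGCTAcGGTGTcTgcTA
The CPT1A and CPT1B probes shared 18 of those 25 bases and the CPT1A and CRAT probes 16 of 22, with no shared run longer than 8 bases in either pair. The 60 bases of the CPT1B probe span a longer stretch of the genome, so that this probe crosses at least 1 intron.

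All 6 markers of rhabdomyosarcoma cells (MYOD1, MYOG, DES, NCAM1, FGFR4 and CHRNA1) were well above background on every array. One extract stood apart from the rest. In WT replicate 2 the log2 signal of the epithelial marker EPCAM was 7.36, against at most 1.98 in the other 5 extracts, and that of KRT19 was 8.79, against 4.71 to 5.61. KRT8 was between 9.81 and 10.16 in all 6 extracts. Of the 8 markers of epithelial, endothelial and blood cells, 4 or 5 were well above background on every array of a culture, and the blood marker PTPRC was on none. The summed log2 signal of the 8 was 10.78 and 11.40 in WT, 11.09 and 11.11 in CON and 10.89 and 11.58 in KD1, lowest extract first. The endothelial marker VWF was at 9.35 in KD1 replicate 2 and between 5.66 and 6.89 elsewhere. What part the RNA behind these markers had in the results was not tested, and every comparison that involves WT was also fitted without WT replicate 2, with the values or counts given below. No probe was annotated to the fusion transcript itself. The brightest PAX3 probe had a fitted log2 ratio of -0.41 in KD1/CON (adjusted p = 0.346) and -0.41 in KD1/WT (adjusted p = 0.325), and the brightest FOXO1 probe -0.43 (adjusted p = 0.443) and -0.59 (adjusted p = 0.295). These probes also read the unrearranged genes, so they do not check the knockdown.

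CPT1A was lower in KD1 than in both other cultures, by 4.31-fold against WT and by 2.2-fold against CON with the KD1 signal set at a background limit. Its spot was flagged as well above background on all 8 WT arrays and on 7 of 8 CON arrays but on 0 of 8 KD1 arrays, and on 6 of the KD1 arrays the processed signal was a surrogate set by the software. These fold values therefore set each KD1 array at the lowest signal of any probe that was well above background there, and they depend on that limit. With signals floored at the negative controls and median centring, the log2 ratios were smaller, -0.55 in KD1/CON and -1.34 in KD1/WT, and did not pass the test. The size of the difference was thus not measured. The probe entered the test through WT alone, the culture where it was highest, so its ratios and p-values below describe a difference from a signal under background and its pass supports nothing further. On the 4 arrays of KD1/CON its log2 ratio was -2.45 and -3.02 in replicate 1 and -1.94 and -3.01 in replicate 2, the forward array first and the dye swap second. On the 4 arrays of KD1/WT it was -3.29 and -4.02 in replicate 1 and -3.37 and -3.93 in replicate 2. The ratio was thus below 0 on 8 of 8 arrays, and the means over replicates were -2.60 ± 0.18 and -3.65 ± 0.00 (SD, n = 2). In the limma fit over all 6 extracts, the log2 ratio was -2.66 ± 0.20 (SE, adjusted p = 0.00852) in KD1/CON and -3.60 ± 0.20 (SE, adjusted p = 0.00404) in KD1/WT. None of the other 35 tested genes passed in either comparison. The study chose CPT1A on these arrays, so its pass is not independent evidence. Apart from the arrays, the study reported less CPT1A mRNA by RT-PCR after transient siRNA against the fusion in Rh30 and Rh41 cells. It also reported moderately higher CPT1A when the fusion was expressed in RD or NIH3T3 cells. Of all genes tested, 1.00% passed in KD1/CON and 0.715% in KD1/WT, beside 1 of 36 genes of the pathway in each. Both comparisons use the same KD1 extracts, so they are not independent of each other. In bulk RNA, fewer cells with the transcript and less transcript per cell cannot be told apart.

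In WT/CON, the comparison without the knockdown clone, the log2 ratio of CPT1A was 0.46 and 0.63 in replicate 1 and 1.47 and 0.96 in replicate 2. It was above 0 on all 4 arrays, and the fitted value of 0.94 ± 0.20 (SE) did not pass the test (adjusted p = 0.123). It was 0.77 (adjusted p = 0.108) without WT replicate 2. The log2 signal was 5.82 and 6.02 in the WT extracts, 5.06 and 4.84 in CON and 2.15 and 2.09 in KD1. Both WT extracts lay above both CON extracts, and how many of all genes separate in this way was not counted. The KD1 values lay under background, with a surrogate signal on 6 of 8 arrays, so their closeness to each other was not measured.

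**Figure D1:**
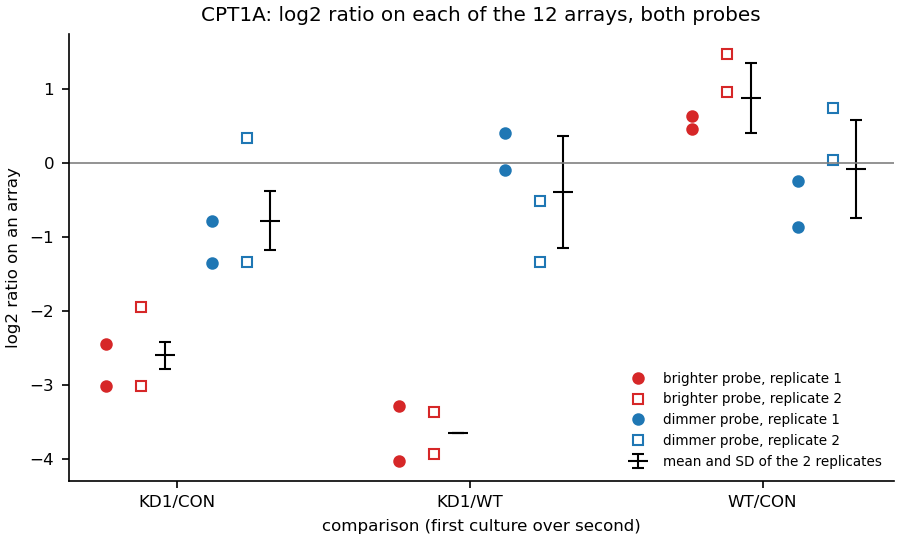
Log2 ratio of CPT1A (vertical axis) on each of the 12 arrays for the 3 comparisons (horizontal axis), with the brighter probe in red and the dimmer one in blue, filled circles for replicate 1, open squares for replicate 2, and black bars for the mean and SD of the replicates. The brighter probe lies below 0 on all 8 arrays with KD1, while the dimmer probe crosses 0 in each comparison.

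The fitted ratios of CPT1A depended on the background correction in all 3 comparisons. Under normexp correction with an offset of 50 and loess, the log2 ratio was -0.15 (adjusted p = 0.538) in KD1/CON and -0.36 (adjusted p = 0.221) in KD1/WT, and 0 of all genes passed there, with 3043 and 3256 genes at an unadjusted p under 0.05. In WT/CON the log2 ratio of CPT1A under that correction was 0.22, against 0.94 in the main fit. Filters that ask for signal on every array left CPT1A untested. Over the 14 alternatives that tested it, CPT1A passed in 11 and 12, with adjusted p between 1.09e-06 and 0.538 in KD1/CON and between 1.72e-07 and 0.227 in KD1/WT. Both lowest values came from the fit of 12 arrays as separate values, which counts arrays of the same extract as replicates. Without WT replicate 2, the log2 ratios were -2.67 (adjusted p = 0.00804) and -3.43 (adjusted p = 0.0155).

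The dimmer CPT1A probe, A_24_P347065 at chr11:68280782-68280841, was well above background on 6 of 8 WT, 5 of 8 CON and 3 of 8 KD1 arrays and was not tested. Its mean log2 ratio was -0.78 ± 0.40 in KD1/CON and -0.39 ± 0.76 in KD1/WT (SD, n = 2), below 0 on 3 of 4 arrays in each. With the mean of both probes in place of the brighter one, the fitted values were -1.67 (adjusted p = 0.0547) and -2.04 (adjusted p = 0.0461). The files do not tell which transcript variants each probe reads. Within 2 Mb on each side of CPT1A, 66 tested genes had a median log2 ratio of -0.32 in KD1/CON, with 57 below 0, and of -0.24 in KD1/WT, with 48 below 0, while the medians of all genes were -0.01 and 0.01. None of these neighbours passed the test in a KD1 comparison, the lowest was at -1.37 in each, and the part of this shift in the CPT1A value was not tested.

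The 250 bases before the CPT1A start in the RefSeq promoter table, at chr11:68844278-68844527 on the minus strand of GRCh38.p14, are shown because the fusion protein carries the paired domain and homeodomain of PAX3. Capitals mark matches, on either strand, to any of the strings GTTAC and GTTAT and also GTTCC and GTTCT, used here for the paired domain, and to ATTA, used for the homeodomain.
CPT1A upstream: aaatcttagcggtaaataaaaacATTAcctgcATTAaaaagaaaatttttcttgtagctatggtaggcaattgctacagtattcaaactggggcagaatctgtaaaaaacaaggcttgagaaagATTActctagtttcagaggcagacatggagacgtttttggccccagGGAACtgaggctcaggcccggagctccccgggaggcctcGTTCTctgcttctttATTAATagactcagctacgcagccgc
The window held 1 match to GTTCC 80 bases and 1 to GTTCT 41 bases before the start, and 5 to ATTA, of which 2 overlap each other. Of the 43 genes, 36 had an entry. Any of the 4 paired-domain strings was present in 20 of 36 windows of 300 bases (55.6%) and in 77% of 27305 promoters, and ATTA in 12 of 36 (33.3%) and in 51.0%. The direct repeat known as the PPAR response element, searched in 1 form, was found in 0 of 36 windows and in 6 of 27305 promoters. The genes without an entry were CPT1B, CRAT, ECH1, DECR1, EHHADH, ACAA1 and ACOX2. Such matches describe letters in the window and do not by themselves show binding, and which start these cells use was not measured. The stretch from GTTCT through the 2 overlapping ATTA matches lies in an element that the study tested in a reporter. There PAX3-FKHR raised its activity in a line without the fusion, and mutating its paired-domain site ended that response and lowered basal activity. The study's gel-shift binding was shown for another upstream element.

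None of the other members of the carnitine shuttle passed the test in any comparison. The log2 signal of CPT1B was 11.96 and 11.19 in WT, 10.42 and 9.98 in CON and 10.64 and 10.86 in KD1, in the order of the replicates. WT lay above both clones, and its fitted log2 ratio was 1.33 ± 0.27 (SE, adjusted p = 0.106) in WT/CON, -0.79 ± 0.27 (adjusted p = 0.231) in KD1/WT and 0.54 ± 0.27 (adjusted p = 0.387) in KD1/CON. It was above 0 on all 4 arrays of WT/CON. Leaving out WT replicate 2 gave 1.68 (adjusted p = 0.0665) in WT/CON and -1.12 (adjusted p = 0.0872) in KD1/WT. Without KD1 replicate 1 the WT/CON value was 1.33 with an adjusted p of 0.00814, and without KD1 replicate 2 it was 1.32 with 0.00656, in fits where 4.97% and 5.55% of all genes passed. Over all alternatives that tested it, the adjusted p ran from 0.000382 to 0.390. The lowest came from the fit of 12 arrays as separate values, which counts arrays of the same extract as replicates and where 33.5% of all genes passed.

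The log2 signal of CPT1C was 7.39 and 6.82 in WT, 7.15 and 7.44 in CON and 6.05 and 6.97 in KD1. The lowest value was in KD1 replicate 1, and KD1 replicate 2 was above WT replicate 2. The fitted log2 ratio was -0.74 ± 0.36 (SE, adjusted p = 0.379) in KD1/CON and -0.59 ± 0.36 (adjusted p = 0.448) in KD1/WT, the latter -1.16 (adjusted p = 0.0935) without WT replicate 2. CPT2 was at 11.59 and 11.04 in WT, 11.25 and 11.34 in CON and 11.04 and 11.00 in KD1, with fitted log2 ratios of -0.21 and -0.29 whose 95% intervals ran from -0.71 to 0.29 and from -0.79 to 0.21. SLC25A20 was between 9.69 and 9.99 in all 6 extracts, and its ratios of -0.14 and -0.04 had intervals from -0.57 to 0.30 and from -0.48 to 0.39. The KD1/WT ratios without WT replicate 2 were -0.52, with an interval from -0.98 to -0.06, for CPT2 and 0.02, from -0.46 to 0.50, for SLC25A20. A 2-fold change of CPT2 or SLC25A20 lay outside these intervals, while one of CPT1C did not.

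**Figure D2:**
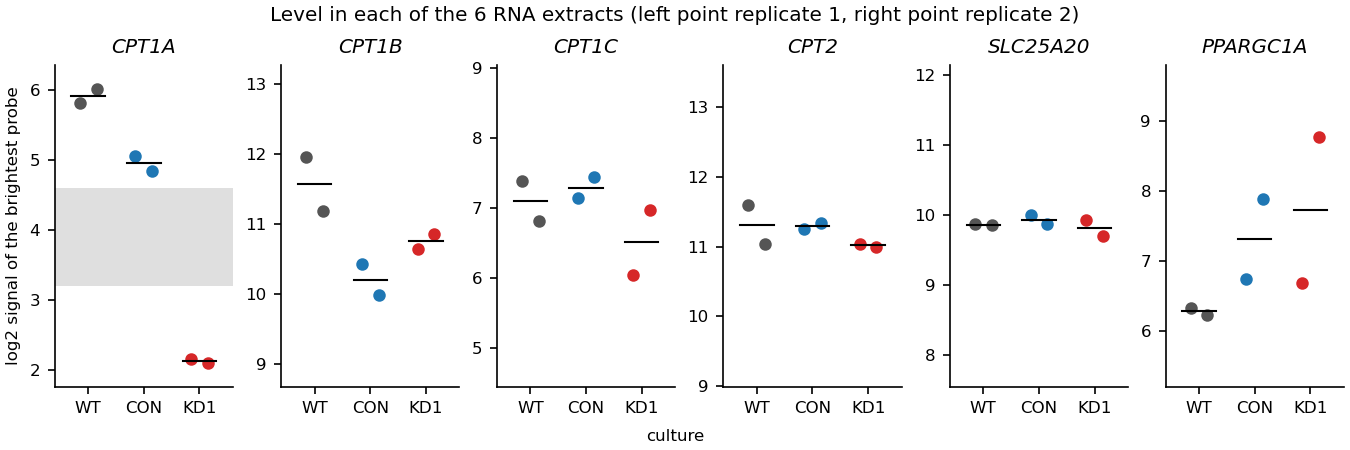
Log2 signal of the brightest probe (vertical axis, each panel spanning 4.6 units) in the 2 extracts of WT, CON and KD1 (horizontal axis) for 5 genes of the carnitine shuttle and for PPARGC1A, with bars for the means and a gray band for the range over arrays, 3.2 to 4.6, of the lowest signal well above background. Only the CPT1A extracts of KD1 lie under the band, and the KD1 extracts of PPARGC1A lie far apart at 6.68 and 8.77. Levels cannot be compared between genes.

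The other carnitine acyltransferases, CROT and CRAT, did not pass the test. CROT, which acts on medium-chain acyl groups in peroxisomes, had log2 ratios of 0.22 ± 0.17 in KD1/CON and -0.08 ± 0.17 in KD1/WT (SE), and CRAT -0.19 ± 0.17 and -0.03 ± 0.17. The intervals of CRAT, CROT and SLC25A20 all lay inside a 2-fold change in both comparisons. SLC22A5, the carnitine transporter of the plasma membrane, was not tested, since it was well above background on 4 of 8 WT, 2 of 8 CON and 6 of 8 KD1 arrays. Its mean log2 ratio in KD1/CON was 0.74 ± 1.01 (SD, n = 2), with 0.15 and -0.11 in replicate 1 and 1.58 and 1.32 in replicate 2, so the replicates differed by more than the mean.

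Among the long-chain acyl-CoA synthetases, 3 of 5 were tested and 0 passed. ACSL3 had the largest ratios, 0.43 ± 0.44 in KD1/CON and 0.85 ± 0.44 in KD1/WT (SE, adjusted p = 0.710 and 0.390). On the arrays of KD1/WT it was -0.11 and -0.06 in replicate 1 and 1.65 and 1.92 in replicate 2. The difference lay in replicate 2 alone, where the WT signal was 10.69, against 11.84 in WT replicate 1, and without WT replicate 2 the log2 ratio was 0.02. ACSL4 was at -0.42 and -0.33 and ACSL1 at -0.08 and 0.22, and their KD1/WT values without WT replicate 2 were -0.57 and -0.32. ACSL6 was well above background on no array, and ACSL5 on 1 WT, 0 CON and 2 KD1 arrays.

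The acyl-CoA dehydrogenases carry out the first oxidation and pass electrons to the electron transfer flavoprotein, encoded by ETFA and ETFB. Of these 10 genes 9 were tested and 0 passed. ACADSB, which acts on branched short-chain acyl groups, had the lowest ratio in KD1/CON, with -0.72 and -0.34 in replicate 1 and -0.86 and -0.56 in replicate 2, below 0 on 4 of 4 arrays. Its fitted log2 ratio was -0.57 ± 0.20 (SE, adjusted p = 0.242), and in KD1/WT it was 0.12 ± 0.20, or 0.30 without WT replicate 2. Very-long-chain acyl-CoA dehydrogenase, ACADVL, had the largest ratio in KD1/WT, -0.33 ± 0.19 (SE, adjusted p = 0.419), and was at 0.18 in KD1/CON. ACADM and ACADS, the medium-chain and short-chain enzymes, lay between -0.03 and 0.18, and ETFA and ETFB between -0.01 and 0.22. In KD1/WT all 9 intervals lay inside a 2-fold change, and in KD1/CON those of 7 did. When WT replicate 2 was left out, the KD1/WT value of ACADVL stayed at -0.33, and 1 interval reached past 2-fold, that of the isobutyryl-CoA dehydrogenase ACAD8, from -1.01 to -0.09. ACAD10 was at -0.03 and 0.04 with its probes on opposite sides of 0. The long-chain enzyme ACADL was well above background on no array.

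The later steps of the mitochondrial spiral held the 2 highest ratios among the tested genes of the pathway in KD1/CON, neither of which passed the test. ECHS1, the short-chain enoyl-CoA hydratase, was at 0.92 and 0.66 in replicate 1 and 0.82 and 0.49 in replicate 2. The ratio was above 0 on 4 of 4 arrays, with a fitted value of 0.72 ± 0.18 (SE, adjusted p = 0.153). HADHB, a subunit of the trifunctional protein, was at 0.41, 0.81, 0.53 and 0.86 on the same arrays and at 0.66 ± 0.20 in the fit (adjusted p = 0.211), and HADHA, the other subunit, at 0.47 ± 0.21 (adjusted p = 0.345). In KD1/WT the ratios were 0.27 for ECHS1, 0.15 for HADHB and 0.18 for HADHA, and in WT/CON 0.45, 0.51 and 0.29. Without WT replicate 2 they were 0.39, -0.09 and -0.06 in KD1/WT and 0.32, 0.73 and 0.54 in WT/CON, so the KD1/WT ratios of both subunits changed sign. ACAA2, the mitochondrial thiolase, was at 0.38 and 0.23 in the KD1 comparisons. HADH, ECH1 and DECR1 lay between -0.18 and 0.12, and the probes of HADH took opposite signs in both KD1 comparisons, as did those of DECR1 in KD1/WT. All 7 intervals lay inside a 2-fold change in KD1/WT.

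Of the peroxisomal enzymes 3 of 4 were tested, with 0 passing. The oxidase ACOX3 was at 0.25 ± 0.18 and 0.16 ± 0.18 (SE), and its second probe was at -0.01 and -0.07. The thiolase ACAA1 was at -0.10 and 0.19, and the bifunctional enzyme EHHADH at 0.22 and -0.02, in KD1/CON and KD1/WT. All intervals lay inside a 2-fold change. For EHHADH the means of the arrays themselves were 0.02 and 0.18. Its 3 comparisons failed to add up by -0.34 in replicate 1 and -0.81 in replicate 2, the latter the largest gap among tested members. ACOX2 was well above background on 4 WT, 1 CON and 4 KD1 arrays and was not tested, with mean log2 ratios of 1.22 ± 0.16 in KD1/CON and 0.63 ± 0.32 in KD1/WT (SD, n = 2).

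Among the regulators, PPARGC1A, a coactivator of genes of oxidation and mitochondrial biogenesis, had the highest log2 ratio among the tested genes of the pathway in KD1/WT. It was 0.33 and 0.45 in replicate 1 and 2.68 and 2.23 in replicate 2, above 0 on 4 of 4 arrays. The fitted value was 1.45 ± 0.47 (SE, adjusted p = 0.219), and in KD1/CON it was 0.46 ± 0.47 (adjusted p = 0.714). The log2 signal was 6.33 and 6.23 in WT, 6.74 and 7.89 in CON and 6.68 and 8.77 in KD1, so that the WT extracts were below all others and both clones were higher in replicate 2. Without WT replicate 2 the ratio in KD1/WT was 0.64 (adjusted p = 0.265), and without KD1 replicate 1 it was 2.20 (adjusted p = 0.00584), in a fit where 4.08% of all genes passed. The adjusted p ranged over the alternatives from 0.00584 to 0.586. A second, dimmer probe gave -1.40 and -0.19 in replicate 1 and 2.62 and 1.90 in replicate 2.

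The nuclear receptors that switch on genes of oxidation when bound by fatty acids showed no change that passed. PPARA was at 0.51 ± 0.25 (SE, adjusted p = 0.392) in KD1/CON and -0.03 ± 0.25 in KD1/WT, and its 4 probes ran from -0.09 to 0.51 and from -0.40 to 0.11. On the arrays of KD1/CON the brightest probe was at 0.14 and 0.16 in replicate 1 and at 0.85 and 0.91 in replicate 2. PPARD was at 0.00 and -0.12, with probes on opposite sides of 0 in KD1/WT. PPARGC1B was at -0.36 and -0.02, also with probes of both signs in KD1/WT. PPARG was well above background on no array.

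The genes that set malonyl-CoA and the choice of fuel did not pass either. ACACA, the acetyl-CoA carboxylase that makes malonyl-CoA for fatty acid synthesis, was at 0.64 and 0.65 in replicate 1 and 0.47 and 0.47 in replicate 2 of KD1/CON, all above 0, with a fitted value of 0.53 ± 0.27 (SE, adjusted p = 0.408). In KD1/WT it was at 0.43 ± 0.27 (adjusted p = 0.466), but at 0.00 without WT replicate 2 and at 0.87 without WT replicate 1, so the ratio of this probe rested on WT replicate 2. Its second probe showed the reverse, with 0.81 and 0.77 in replicate 1 and 0.20 and 0.13 in replicate 2 of KD1/WT. PDK4, the kinase that shuts pyruvate dehydrogenase and so favors fat as fuel, was at -0.53 ± 0.18 (adjusted p = 0.238) in KD1/WT, 0.07 ± 0.18 in KD1/CON and 0.61 ± 0.18 (adjusted p = 0.204) in WT/CON. Its ratios in KD1/WT were -0.13, -0.42, -0.30 and -0.85, below 0 on 4 of 4 arrays, and without WT replicate 2 the fitted value was -0.41 there and 0.43 in WT/CON. MLYCD, which breaks down malonyl-CoA, was at -0.11 and 0.11. ACACB, the carboxylase placed at the mitochondrion, was well above background on 3 WT, 6 CON and 4 KD1 arrays and was not tested.

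**Figure D3:**
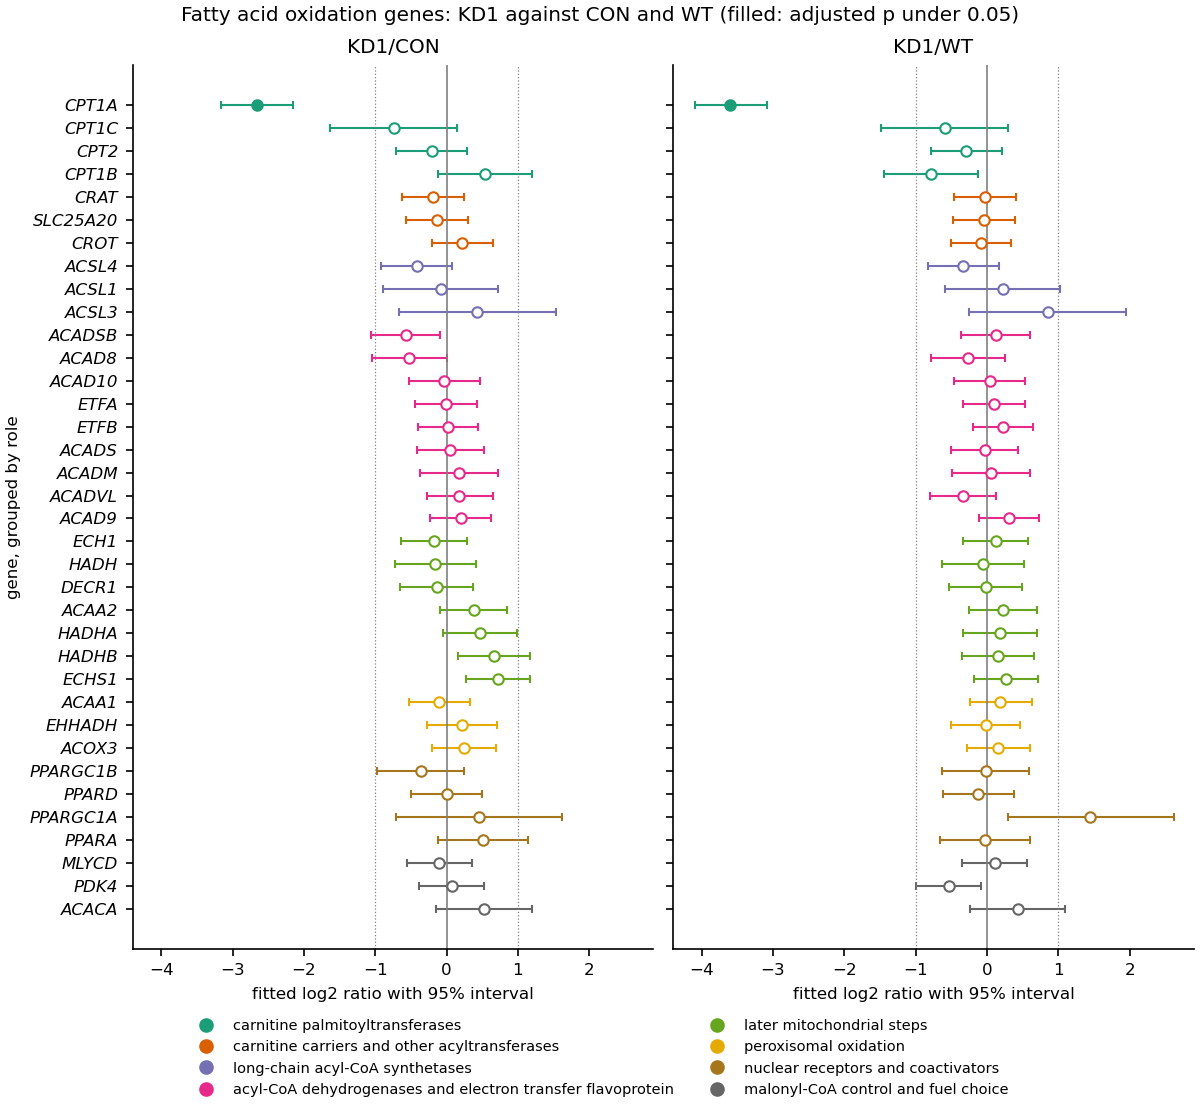
Fitted log2 ratio with its 95% interval (horizontal axis) for each of the 36 tested genes (vertical axis, colored by role) in KD1/CON on the left and KD1/WT on the right, with filled points where the adjusted p is under 0.05 and dotted lines at 2-fold. CPT1A is the one filled point in each panel, placed at its fitted value although its KD1 signal was under background, and PPARGC1A and ACSL3 have wide intervals.

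Over the 36 tested genes the ratios centered near 0, as those of all genes did. The median log2 ratio was 0.01 in KD1/CON and 0.01 in KD1/WT, beside -0.01 and 0.01 over all 18884 genes, and 18 genes lay below 0 and 18 above 0 in each comparison. At an unadjusted p under 0.05 there were 4 genes in each comparison, 11.1% of the pathway beside 16.2% and 17.2% of all genes. The 95% interval lay inside a 2-fold change for 25 genes (69.4%, beside 72.7% of all genes) in KD1/CON and for 29 genes (80.6%, beside 71.4%) in KD1/WT. The ratio had 1 sign on all 4 arrays for 20 genes (55.6%, beside 48.5%) and for 6 genes (16.7%, beside 33.0%). Without WT replicate 2, the KD1/WT ratio changed sign for 7 of the 36 genes, 19 lay below 0, the median was -0.05 beside 0.06 over all genes, and 29 intervals lay inside a 2-fold change (80.6%, beside 63.1%). Among the 35 genes other than CPT1A in the fit of all extracts, the lowest adjusted p was 0.153 in KD1/CON and 0.219 in KD1/WT, and the ratios ran from -0.74 to 0.72 and from -0.79 to 1.45.

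**Figure D4:**
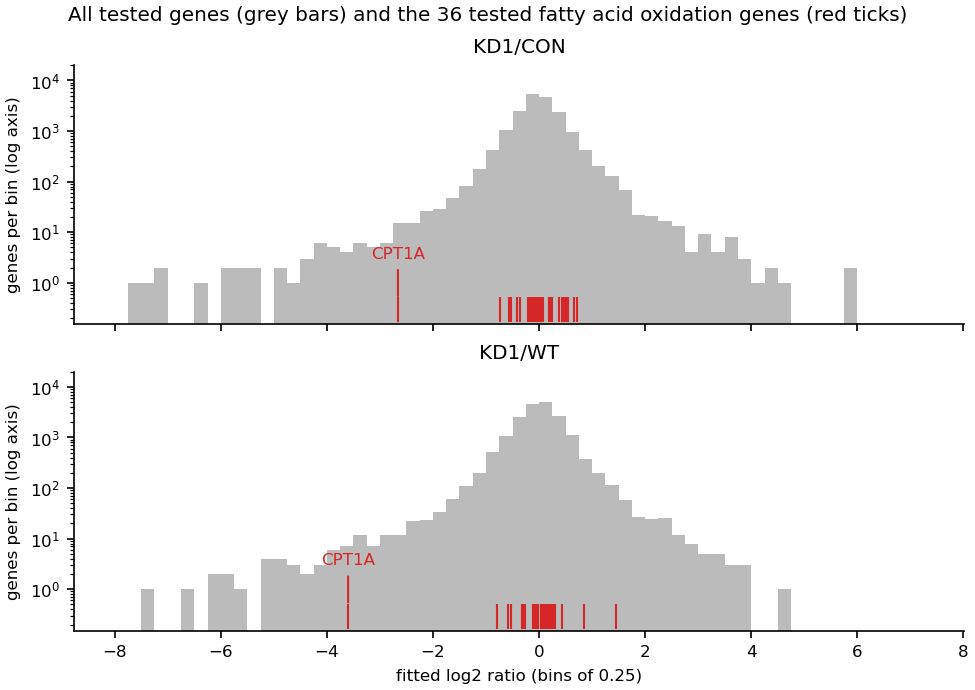
Number of genes per bin of 0.25 (vertical axis, logarithmic) against the fitted log2 ratio (horizontal axis) for the 18884 tested genes in KD1/CON (top) and KD1/WT (bottom), with red ticks for the 36 genes of the pathway. The CPT1A tick stands at fitted values of -2.66 and -3.60 that hold a KD1 signal under background. With KD1 set at the background limit the differences were 1.13 and 2.11. The other ticks lie between -0.79 and 1.45.

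In WT/CON, neither of which carries the hairpin against the fusion, 0 of the 36 genes passed the limma test, 7 had an unadjusted p under 0.05 (19.4%, beside 17.4% of all genes), and 0.646% of all genes passed. The lowest adjusted p was 0.106, for CPT1B. The ratios ran from -1.0 for PPARGC1A to 1.33 for CPT1B, with a median of -0.08 beside -0.03 over all genes. Without WT replicate 2 that median was 0.12, beside -0.06 over all genes, the ratio changed sign for 11 of the 36 genes, and that of PPARGC1A was -0.16. The 95% interval lay inside a 2-fold change for 26 genes (72.2%, beside 71.5%), and the ratio had 1 sign on all 4 arrays for 17 (47.2%, beside 44.0%). ACADSB, at -0.69 ± 0.20 (SE, adjusted p = 0.184), and ACADVL, at 0.52 ± 0.19 (adjusted p = 0.255), were the dehydrogenases farthest from 0, and were at -0.90 (adjusted p = 0.0842) and 0.52 without WT replicate 2. The median size of a ratio, without its sign, was 0.22 in this comparison of the parental line with a clone, beside 0.21 in KD1/CON and 0.17 in KD1/WT. Replicates differed by a median of 0.20 in KD1/CON, 0.42 in KD1/WT and 0.32 in WT/CON for these genes, beside 0.22, 0.40 and 0.35 for all genes. The sign was the same in both replicates for 29, 20 and 22 of the 36 (80.6%, 55.6% and 61.1%, beside 70.1%, 56.8% and 60.7% of all genes).

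The selection criteria in the study's methods ask for a mean change of at least 2-fold in both KD1 comparisons, 1 direction on every array and a signal over the negative controls. Read with that limit on every array, they selected 0 of the 43 genes for KD1, beside 0.486% of all genes as lower and 0.304% as higher. With the limit on at least 1 array, CPT1A alone was selected, as lower, beside 0.728% of all genes. CPT1A passed the limit on 5 of the 8 KD1 arrays. With WT in the place of KD1, PPARGC1A was selected as lower, beside 0.374% of all genes, and with CON none of the 43 was.

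Beyond the 43 genes, 67 others of lipid uptake, activation, oxidation, ketone body and carnitine metabolism and their control were on the array, of which 55 were tested. None passed the limma test in KD1/CON or KD1/WT, where 13 and 8 had an unadjusted p under 0.05 (23.6% and 14.5%, beside 16.2% and 17.2% of all genes), and 1 passed in WT/CON. That gene was PRKAG3, a muscle subunit of AMP-activated protein kinase, with a log2 ratio of -2.92 ± 0.34 (SE, adjusted p = 0.0422) in WT/CON, -1.27 (adjusted p = 0.172) in KD1/CON and 1.66 (adjusted p = 0.12) in KD1/WT. Chosen after their values were seen, BDH1, the mitochondrial ketone body dehydrogenase, was at -1.16 (adjusted p = 0.0723) and -1.35 (adjusted p = 0.0656) in the KD1 comparisons, and ACSS1, the mitochondrial acetyl-CoA synthetase, at -1.54 (adjusted p = 0.0861) and -1.84 (adjusted p = 0.0733). The study lists BDH1 and ACSS1, as well as CPT1A, among the genes lowered in KD1. A second ACSS1 probe, not the brightest, was at -1.59 (adjusted p = 0.0525) and -1.85 (adjusted p = 0.0439). Without KD1 replicate 1 or 2, the number of these other genes passing in KD1/CON was 3 and 2 (5.45% and 3.64%, beside 3.39% and 2.23% of all genes), and without WT replicate 1 or 2 it was 7 and 6 (12.7% and 10.9%, beside 4.10% and 4.18%). The muscle fatty acid binding protein FABP3, also chosen after its values were seen, was at 2.84 ± 0.78 (SE, adjusted p = 0.175) in KD1/WT by its brightest probe and at 0.11 ± 0.21 by another.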

How the data were processed

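Expression was measured on 12 Agilent two-color arrays of a whole human genome design with 45015 features. The authors extracted the arrays with Agilent Feature Extraction 10.5.1.1 and deposited linear intensity values per spot: mean, background, background-subtracted and processed signals, the last after lowess normalization within the array. Each spot also has, as deposited, the log10 ratio of red over green processed signal that the software wrote. The authors further deposited a table of log2 ratios per probe, which equaled the scanner ratios within 5.35e-06. Depth does not apply to arrays, and precision is limited by the 2 extracts per culture. No spot was saturated (0), and 95 to 188 spots per array with outlier flags were left out.

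Log2 ratios of the processed intensity were turned so that the first culture is the numerator, averaged over each dye-swap pair, and reduced by least squares to a value per extract. The main fit was limma 3.58.1 (lmFit and eBayes) in R 4.3.3 with culture and replicate as terms, 2 residual and 5.68 total degrees of freedom, and Benjamini-Hochberg adjustment over 26209 probes at 0.05. Because each array compares extracts with the same replicate number, the replicate is a block by construction, and because the KD1 arrays of replicate 1 and of replicate 2 were on separate slides, the replicate values of the KD1 comparisons are also the values within a slide. All WT/CON arrays were on 1 slide. Arrays of the same extracts were not counted as replicates. The script was run on simulated data with variances drawn from the prior of the fit itself. Since that setting suits the model, the run does not show how the test performs on these arrays. Genes named are CPT1A with both probes and the other carnitine shuttle genes, members that passed a test or the 2-fold criteria, the member with the largest ratio of each role in each KD1 comparison, members not well above background in a culture or with probes of opposite sign, and other genes where stated. Positions are those of the files on build NCBI36, and promoters are from RefSeq on GRCh38.p14. Members, lists and tests were chosen with earlier results of these data known. Alternatives covered background correction, filters, the block, the slide, the probe of a gene and each extract left out.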

Additional observations from a re-analysis of the deposited data

How the results depend on the processing

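The CPT1A decrease in KD1 kept its direction under every alternative that gave a value, but not its pass. In KD1/CON it was -1.67 with the mean of its probes, -0.55 with signals floored at the negative controls and median centring, and -0.15 under normexp and loess, none of which passed. In KD1/WT it was -1.34 with the floor and -0.36 under normexp and loess, which did not pass. The filters that ask for signal over the negative controls on every array, or well above background in both channels of every array, left CPT1A untested, so the counts of passing members were then 0 and 0. Under the floor, normexp and loess they were also 0 in both KD1 comparisons, and with the mean of probes 0 in KD1/CON. In WT/CON, CPT1A was at 0.94 with an adjusted p of 0.000534 when the 12 arrays were fitted as separate values with a dye effect per slide, and at 0.94 with 0.0482 without KD1 replicate 2. That fit of 12 arrays counts arrays of the same extract as replicates and gave 14, 8 and 10 passing members in KD1/CON, KD1/WT and WT/CON, and 21, 18 and 15 of the other pathway genes, where 30.4%, 34.0% and 33.5% of all genes passed, beside 38.9%, 22.2% and 27.8% of the members. Without the replicate block, on separate channels, CPT1A was at -2.83, -3.80 and 0.97, the members passing were 1, 1 and 0, and PRKAG3 no longer passed (0 other genes in WT/CON). That count was also 0 with a coefficient per comparison, both stricter filters, the floor and normexp, while a coefficient per comparison added 1 gene, BDH1, in each KD1 comparison, and no filter added 1, SLC27A2, in KD1/WT.

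With 1 extract or replicate left out, CPT1A ranged from -2.89 to -2.46, from -3.73 to -3.43 and from 0.67 to 1.20 in the order above, the passing members from 1 to 1, from 1 to 2 (PPARGC1A without KD1 replicate 1) and from 0 to 2 (CPT1B without either KD1 replicate, CPT1A without KD1 replicate 2), the other genes from 0 to 7, from 1 to 4 and from 1 to 3, and the medians of the members from -0.04 to 0.09, from -0.05 to 0.05 and from -0.10 to 0.12. A fit without 1 extract leaves 1 extract in a culture, so these counts of passing genes support no conclusion about the pathway. The share of all genes that passed also changed between these fits. In WT/CON without either KD1 replicate, the share of the other genes was close to that of all genes. In KD1/WT without CON replicate 1 it was above that of all genes. With the floor and median centring the medians of the members were -0.20 in KD1/CON and -0.24 in WT/CON. The medians of all genes there were -0.18 and -0.20. Under that centring 84.0% of all passing genes in KD1/CON were lower in KD1, against 54.5%, and 100% in KD1/WT, against 78.5%. The 2-fold criteria selected 0 members and 239 of all 30238 genes in the main setting. With the limit on at least 1 array they selected 1 member, beside 417 of all genes. With WT in the place of KD1 they selected 1, beside 242. Without replicate 1 they selected SLC22A5, as higher, beside 833 of all genes. Without replicate 2 they selected CPT1C, as lower, beside 257.

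Ratios of named members that had not passed changed sign in these cases. With the floor, ACACA was at -0.05, ACOX3 at -0.16 and CPT2 at -0.18 in WT/CON, and ACADVL at -0.01 in KD1/CON. PDK4 in KD1/CON was at -0.04 with a coefficient per comparison and 0.00 under normexp. With 1 extract or replicate left out, the values ran for ACACA from -0.38 to 0.58, ACOX3 from -0.02 to 0.19, ACSL3 from -1.24 to 0.41, CPT1C from -0.72 to 0.41 and CPT2 from -0.15 to 0.31 in WT/CON, and ACADSB from -0.11 to 0.36, CPT1C from -1.34 to 0.16, ACSL3 from -0.09 to 1.79, PPARA from -0.45 to 0.38 and SLC25A20 from -0.15 to 0.06 in KD1/WT, and ACSL3 from -0.15 to 1.02, ACADVL from -0.02 to 0.39, ACAA1 from -0.21 to 0.01 and PPARGC1A from -0.30 to 1.19 in KD1/CON. The cause of these changes was not tested. Of 807 values of the other named members under the alternatives, 752 kept their direction and, where tested, their side of the threshold, 23 passed only there, and 32 changed sign. Depth does not apply to arrays, and the signal of CPT1A in KD1, under the background limit, sets what can be said of it.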
